A study of Mus musculus with 14 samples.

Results

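The genes described here encode the 4 Janus kinases, Jak1, Jak2, Jak3 and Tyk2, and 5 of the transcription factors they activate, Stat2, Stat3, Stat5a, Stat5b and Stat6. They were chosen by name, as the rows of the first-phase expression table whose NCBI gene ID carries one of these symbols, which gave 9 of 17890 genes and 41 of 58563 transcripts. All 9 genes passed the filter on low counts. On the mouse genome (GRCm38) Jak1 (gene 16451) lies on chromosome 4, Jak2 (16452) on chromosome 19, Jak3 (16453) on chromosome 8 and Tyk2 (54721) on chromosome 9. Stat2 (20847) and Stat6 (20852) lie on chromosome 10, and Stat3 (20848), Stat5a (20850) and Stat5b (20851) lie side by side on chromosome 11, with 1637 bases between Stat3 and Stat5a and 347 bases between Stat5a and Stat5b.

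The cells are labelled bone marrow-derived macrophages and their poly(A) RNA was sequenced. The 4 D libraries stand for diabetic mice. These were male C57BL/6J mice, an inbred strain, aged 8 weeks at the start, that were injected into the peritoneum with streptozotocin, which kills insulin-producing cells of the pancreas, in 5 daily doses of 42 to 45 mg/kg, each given after a 12 h fast. Mice whose non-fasting blood glucose exceeded 16.9 mmol/L counted as type 1 diabetic and were hyperglycaemic for 6 weeks. The 4 M libraries were matched by elimination to the healthy mice of the same strain, sex and starting age, since no label explains the letter M, so each direction below is that of D over M and rests on this reading of the letters. What the healthy mice were injected with, if anything, is not given in the sources used here. Marrow progenitors of both groups were then cultured for 7 days at 5 mmol/L glucose with recombinant mouse M-CSF, the growth factor that drives marrow cells towards macrophages. D against M therefore asks which transcripts differ between cells of diabetic and of healthy marrow once both have been kept in the same glucose. Whether each library is a separate animal is not stated in the labels, and p-values here reflect only how far these samples differ from each other, which may be technical. The second phase, with 3 diabetic-trained samples and 3 untrained ones, was not analysed here.

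Janus kinases are bound to the inner ends of cytokine receptors that have no kinase activity of their own. When a cytokine brings receptor chains together, the kinases phosphorylate the receptor and then the STAT proteins that dock on it, and the STATs pair up, enter the nucleus and switch on genes. In blood-forming marrow the pathway carries the signals of interferons, of interleukins and of the growth factors of granulocytes, red cells and platelets, and its feedback inhibitors are among its own target genes.

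Stat3 is made in forms that differ in their coding sequence, and the transcript that passed the test below is one of them. In the GENCODE M21 annotation NM_213659 codes for 770 codons, a full-length alpha form. NM_011486 codes for the beta form of 722 codons, which skips the first 50 bases of an exon and so ends in another reading frame without the transactivation domain at the end of the alpha form. NM_213660 keeps those 50 bases and is an alpha form too, with 769 codons, since it lacks 1 codon further upstream. Its annotated length is 2927 bases, against 4516 bases for NM_213659, mainly because its last exon ends earlier. The first pair of sequences runs across that exon junction on the minus strand of chromosome 11, with 12 bases of the preceding exon followed by chr11:100889519-100889590, and capitals mark the 50 bases that the beta form lacks. The second pair runs across the 3 bases at chr11:100893074-100893076 that NM_213660 lacks, marked in capitals, with 15 transcript bases on each side. These bases are the difference in the exon end and straddle a codon boundary, so the capitals are not themselves a codon of the reading frame.
Stat3 alpha form, NM_213659: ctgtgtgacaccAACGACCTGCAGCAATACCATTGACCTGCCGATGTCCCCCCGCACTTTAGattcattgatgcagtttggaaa
Stat3 beta form, NM_011486: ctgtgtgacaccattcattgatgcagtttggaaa
Stat3 with the extra codon, NM_213659: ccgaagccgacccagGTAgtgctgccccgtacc
Stat3 without the extra codon, NM_213660: ccgaagccgacccaggtgctgccccgtacc

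Each library held 19048248 to 20028111 estimated counts, and each of the 9 genes had between 466 and 12288 of them. Values below are CPM, counts scaled to a common library size after TMM adjustment, unless TPM is named. Macrophage markers were present: Lyz2 (lysozyme) averaged 8145 ± 1911 CPM in D and 4606 ± 303 CPM in M libraries (SD, n = 4 each) and the M-CSF receptor gene Csf1r 209 ± 22.5 and 162 ± 9.97 CPM, with 7 of 10 macrophage and monocyte markers higher in D. The tissue macrophage receptor Mertk was close to nothing, at 0.739 ± 0.193 CPM in D and 1.06 ± 0.328 CPM in M libraries. Neutrophil-lineage markers were far more abundant, with a summed level of 39804 to 61337 CPM over the D and 35188 to 37169 CPM over the M libraries, and 8 of 11 were higher in D. B-lineage markers were lower in 9 of 11 cases, with sums of 76.5 to 262 CPM in D against 1213 to 1581 CPM in M libraries. Mast cell and basophil markers were higher in 7 of 7 cases and T and NK cell markers in 5 of 8, megakaryocyte markers were lower in 5 of 5 and dendritic markers in 4 of 6, and none of 5 erythroid markers passed (edgeR). In bulk RNA, fewer cells of a type and less RNA per cell cannot be told apart.

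All 9 genes were read in every library. Per transcript length, Jak1 led with 226 ± 26.2 TPM in D and 177 ± 19.9 TPM in M libraries (SD, n = 4), followed by Stat6 with 201 ± 27.9 and 168 ± 8.95 TPM. The ranges of these 2 genes overlapped in both groups, so their order is not settled. Stat3 came next with 111 ± 9.50 TPM in D and 83.3 ± 6.13 TPM in M libraries, below Stat6 and above all genes that follow in each library. Stat5b (60.3 ± 5.23 TPM in D, 50.8 ± 2.03 TPM in M) and Jak2 (59.0 ± 3.06 and 54.7 ± 3.60 TPM) overlapped with each other, and so did Stat2 (32.3 ± 2.60 and 32.7 ± 4.81 TPM) and Tyk2 (30.8 ± 1.45 and 34.5 ± 2.04 TPM). Stat5a (24.1 ± 2.24 and 26.0 ± 0.693 TPM) and then Jak3 (15.2 ± 3.77 and 13.3 ± 1.74 TPM) were lowest, each below the one before it in every library of both groups. Against all 17883 genes with a TPM above 0, Jak1 stood at the 96.2nd percentile and Jak3 at the 59.3rd.

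**Figure D1:**
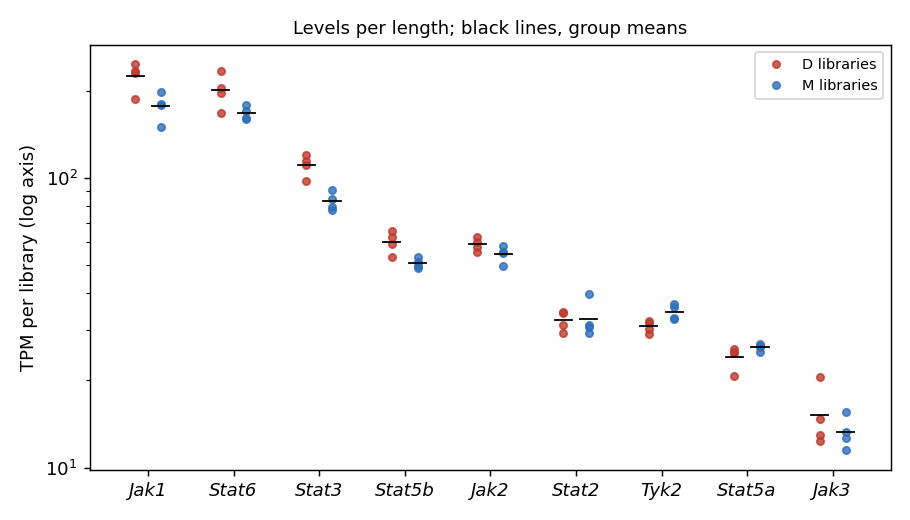
TPM of the 9 genes in each D library (red, left) and M library (blue, right), on a log axis, ordered by the D mean; black lines are group means. Jak1 and Stat6 were highest, with means of 201 to 226 TPM in D and 168 to 177 TPM in M libraries, and Jak3 lowest, at 15.2 and 13.3 TPM.

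Stat3, Jak1, Stat6 and Stat5b were higher in the D libraries, by 27% to 42%, and the other 5 genes did not pass. The count of 4 higher out of 9 and 0 lower stands beside 34.7% of all 12839 genes tested that were called, 17.4% higher and 17.3% lower (edgeR quasi-likelihood test, Benjamini-Hochberg adjusted p under 0.05). At an unadjusted p under 0.05, 5 were higher and 0 lower, but the share of all genes at that level was not counted, so this count has no background. The median log2 fold change of the 9 was 0.30, against -0.03 over all genes tested. In 2 of the 9, Stat3 and Stat5b, every D library lay above every M library, which held for 16.3% of all genes tested (34.7% had no overlap in either direction). D replicate 1 was the lowest D library for 7 of the 9 genes and D replicate 3 the highest for 5. How often either held over all genes was not counted, so these counts have no background. These 2 libraries also had the lowest and the highest neutrophil marker sums among the D libraries (39804 and 61337 CPM). The same held for macrophage and monocyte marker sums (9180 and 14463 CPM). By its D mean given above, the single gene Lyz2 made up most of the macrophage and monocyte sum. Dendritic and erythroid marker sums ran the other way. They were highest in D replicate 1 (150 and 3766 CPM) and lowest in D replicate 3 (55.0 and 805 CPM). The part of the marker differences in these results was not tested.

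**Figure D2:**
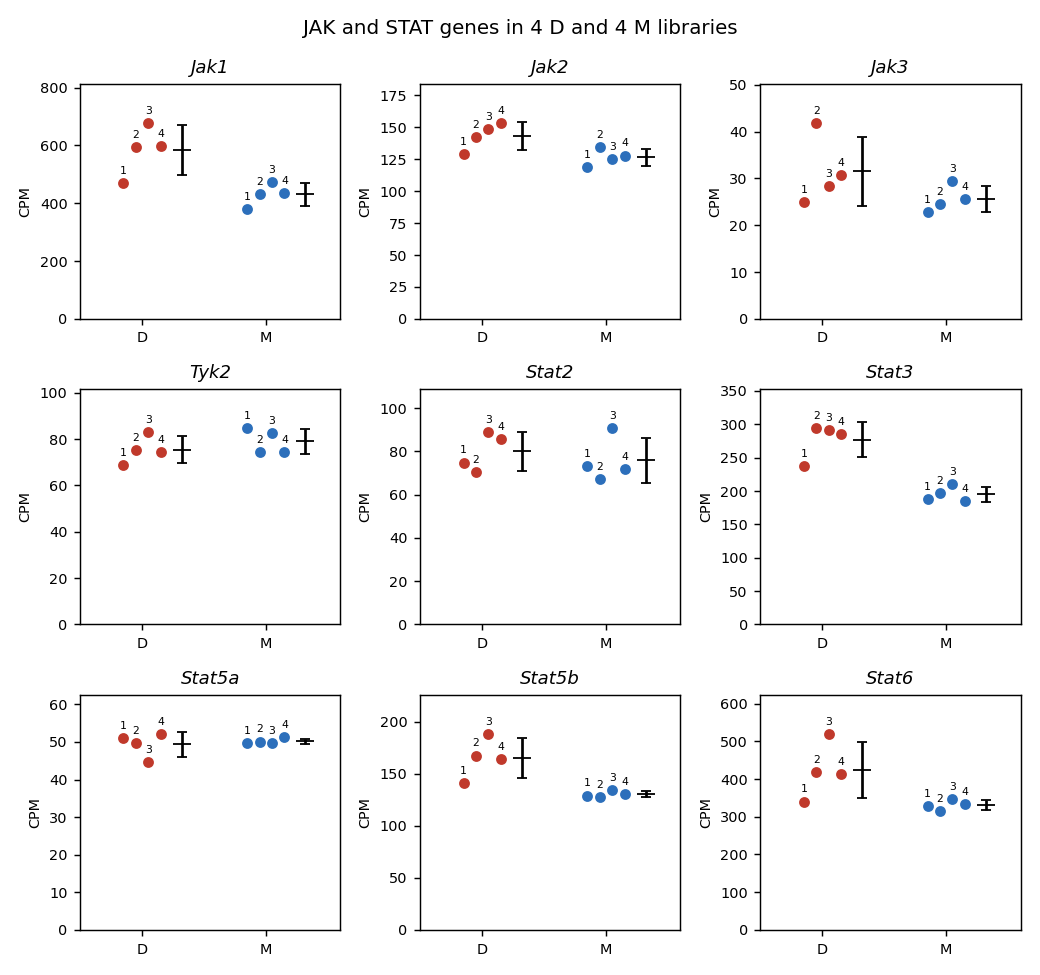
CPM of each gene in the 4 D (red, left) and 4 M libraries (blue, right), numbered by replicate, with the mean and SD in black beside each group; each axis starts at 0. All D points lie above all M points for Stat3 and Stat5b.

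Jak1, the kinase shared by receptors of the interferons, of the interleukin 6 family and of the common gamma chain, had 469.7, 594, 678 and 597 CPM in the D libraries, given here and below as replicates 1 to 4, and 378, 433, 474 and 435 CPM in the M libraries. The groups met at 1 point, since D replicate 1 was just under M replicate 3. The log2 fold change was 0.44 ± 0.11 (SE), a 1.36-fold higher level (95% interval 1.15 to 1.61; adjusted p = 0.0118). The call ended with curated transcripts alone (adjusted p = 0.116), which hold the smaller part of this gene's counts, and on log2(TPM + 1) with no filter (adjusted p = 0.0513). Predicted RefSeq transcripts took 75.0% of the Jak1 counts in D and 71.5% in M libraries.

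Jak2, the kinase of the receptors for erythropoietin, interleukin 3, GM-CSF and interferon gamma, had 129, 142, 149 and 154 CPM in D libraries and 119, 135, 125 and 128 CPM in M libraries. The D values ran from inside the M range to above it. Its log2 fold change of 0.18 ± 0.07 did not pass (adjusted p = 0.0794; 95% interval 0.02 to 0.34). It passed without D replicate 1 (adjusted p = 0.0127), with the replicate number as a block (adjusted p = 0.0488), with DESeq2's test (adjusted p = 0.0377) and with sample quality weights (adjusted p = 0.0202). With curated transcripts alone, which hold the smaller part of its counts, the direction turned (log2 fold change -0.59; adjusted p = 0.202).

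Jak3, found mainly in blood cells, where it serves the common gamma chain, was the scarcest, with 25.1, 41.9, 28.4 and 30.6 CPM in D and 22.8, 24.6, 29.4 and 25.6 CPM in M libraries. One D library, replicate 2, stood well above the rest, and the others overlapped with M. The log2 fold change was 0.30 ± 0.15 (adjusted p = 0.141; 95% interval -0.03 to 0.63). Without D replicate 1 it was called higher (adjusted p = 0.0301).

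Tyk2, the partner kinase at the receptors for type I interferon and interleukin 12, had 69.0, 75.3, 83.2 and 74.5 CPM in D and 84.7, 74.6, 82.5 and 74.5 CPM in M libraries, with each group spanning most of the other. The log2 fold change was -0.07 ± 0.08 (adjusted p = 0.519), and in this fit its 95% interval of -0.24 to 0.10 runs from a fall of 15.0% to a rise of 7.27%. In TPM every D library (28.98 to 32.2) lay below every M library (32.65 to 36.66), and the share of all genes so separated in TPM was not counted. Under the alternative settings the log2 fold change was -0.38 to -0.0008 and never passed (adjusted p 0.0562 to 0.995).

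Stat2 acts with Irf9 in ISGF3, the complex that type I interferon activates. It had 74.8, 70.2, 89.1 and 85.7 CPM in D and 73.2, 67.4, 90.6 and 71.8 CPM in M libraries. Replicate 3 was the highest library in both groups, and the highest of all 8 was an M library. The log2 fold change was 0.08 ± 0.11 (adjusted p = 0.594; 95% interval -0.16 to 0.31), and its sign turned with library totals, TPM or FPKM.

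Stat3, which carries the signals of interleukin 6, interleukin 10 and the granulocyte growth factor G-CSF, had 237, 294, 291 and 286 CPM in D libraries and 187, 197, 210.1 and 185 CPM in M libraries. The groups did not overlap, although D replicate 1 lay far below the other 3 D libraries. The log2 fold change was 0.51 ± 0.08, or 1.42-fold (95% interval 1.25 to 1.61; adjusted p = 0.00143). It was the 1 gene of the 4 whose call held under all 24 alternatives, with log2 fold changes of 0.39 to 0.74 and adjusted p up to 0.00803.

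Stat5a and Stat5b are neighbouring copies with nearly the same coding sequence, activated by GM-CSF, interleukin 3 and many hormone-like cytokines. Stat5b had 141, 168, 189 and 165 CPM in D and 129, 128, 135 and 131 CPM in M libraries. The M libraries were tightly grouped and all 4 D libraries were above them. The log2 fold change was 0.34 ± 0.08, or 1.27-fold (95% interval 1.11 to 1.44; adjusted p = 0.0109), and the call was lost when only the most abundant transcript (adjusted p = 0.307) or only curated transcripts (adjusted p = 0.151) were counted. Stat5a had 51.0, 49.8, 44.7 and 52.2 CPM in D and 49.7, 50.1, 49.6 and 51.2 CPM in M libraries. The D libraries fell on both sides of M, with a log2 fold change of -0.02 ± 0.07 (adjusted p = 0.818; 95% interval -0.17 to 0.12). Stat5b made up 73.4%, 77.1%, 80.8% and 75.9% of the summed CPM of both copies in D libraries and 72.2%, 71.9%, 73.1% and 71.9% in M libraries, so the 4 D shares lay above the 4 M shares. Reads that match both copies could have gone to either, so the split between them is less certain than their sum, which was 215 ± 17.0 CPM in D and 181 ± 2.87 CPM in M libraries (SD, n = 4).

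Stat6, the factor of interleukins 4 and 13, had 340.5, 419, 520.0 and 414 CPM in D libraries and 328, 316, 348 and 333 CPM in M libraries. D replicates 2 to 4 were above all M libraries and D replicate 1 lay inside their range. The log2 fold change was 0.35 ± 0.11, or 1.28-fold (95% interval 1.08 to 1.52; adjusted p = 0.0310). This was the least stable call: it ended in 13 of 24 alternatives, among them the removal of D replicate 2 or 4 or of any M replicate (adjusted p 0.0504 to 0.0837), library totals (adjusted p = 0.0611) and log2(TPM + 1) (adjusted p = 0.0706).

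**Figure D3:**
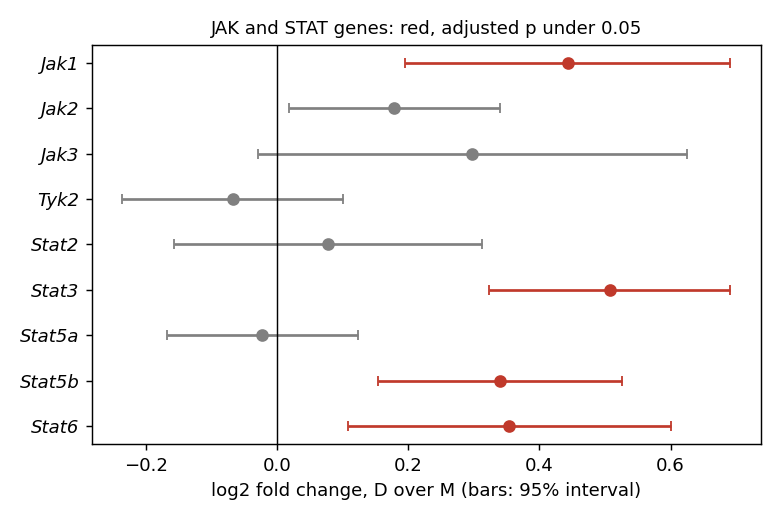
Log2 fold changes of the 9 genes, D over M, with 95% intervals from the edgeR fit; red points passed at an adjusted p under 0.05. The 4 that passed lie between 0.34 and 0.51, and Tyk2 and Stat5a lie just below 0.

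At the level of single transcripts, 32 of 41 passed the filter and 2 were called higher and 0 lower, beside 4.08% called among 32312 tested transcripts, 2.28% higher and 1.8% lower (edgeR, adjusted p under 0.05). DESeq2's test called 5 higher and 0 lower, beside 2449 higher and 2014 lower among all 32312 transcripts, far more than edgeR called. The uncertainty of assigning reads to overlapping transcripts was not modelled, so these p-values may be too small. The Stat3 transcript NM_213659, an alpha form whose 50 bases are shown above, had 212 ± 9.005 CPM in D and 127 ± 17.6 CPM in M libraries (SD, n = 4). No D library came near an M library, and the log2 fold change was 0.75 ± 0.10 (adjusted p = 0.0141). The call ended with the replicate block (adjusted p = 0.0568) and without M replicate 2 (adjusted p = 0.0505). The predicted Jak2 transcript XM_017318068 had 87.4, 80.1, 73.7 and 77.0 CPM in D and 58.1, 62.9, 53.8 and 49.9 CPM in M libraries, again without overlap. Its log2 fold change was 0.50 ± 0.09 (adjusted p = 0.0278), and the call ended with the block (adjusted p = 0.0628) and on leaving out D replicate 2 or 4 or M replicate 1, 3 or 4 (adjusted p 0.0667 to 0.0822). Predicted transcripts held 91.2% of the Jak2 counts in D and 84.9% in M libraries.

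NM_213659 took 76.5 ± 4.30% of the Stat3 counts in D and 64.2 ± 5.19% in M libraries (SD, n = 4). By library, its share was 82.7%, 73.7%, 73.5% and 76.1% in D and 62.4%, 63.6%, 71.5% and 59.3% in M. All D shares were higher, by 12.3 percentage points in the mean. NM_213660, the alpha form with a codon fewer and the shorter 3' end, took 12.2 ± 3.17% in D and 21.0 ± 5.78% in M libraries, with all D shares below all M shares by a narrow margin (14.9% against 15.0% at the closest). The beta form, NM_011486, took 10.9 ± 1.47% in D and 14.8 ± 5.62% in M libraries, with overlap (exact permutation p = 0.200, two-sided). The alpha form as a whole, NM_213659 and NM_213660 summed, took 90.5%, 88.6%, 87.6% and 88.1% in D and 90.6%, 86.5%, 86.5% and 77.3% in M libraries. The groups overlapped, with the highest share in M replicate 1 (exact permutation p = 0.314, two-sided). Reads from the sequence that the 2 alpha transcripts share could be assigned to either. In CPM the 2 minor transcripts did not pass: NM_213660 had a log2 fold change of -0.24 ± 0.29 (adjusted p = 0.852) and the beta form 0.08 ± 0.27 (adjusted p = 0.973).

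Of the 22 transcript shares with a mean of at least 5%, 4 did not overlap between groups, NM_213659 and NM_213660 of Stat3 and 1 each in Jak2 and Tyk2. Over all tested genes, 6.83% of 25915 such shares did not overlap, 3.38% with D above M and 3.45% with D below M. For all 4 the exact two-sided permutation p was 0.0286, the smallest that 4 against 4 libraries can give, and 0.157 after adjustment over the 22, so 0 of them passed. XM_017318068 took 55.6 ± 7.81% of the Jak2 counts in D and 44.0 ± 4.35% in M libraries. XM_030244457, a predicted transcript of Tyk2, took 24.0 ± 1.76% in D and 27.0 ± 1.66% in M libraries. Jak3 divides its counts between NM_001190830 and NM_010589, which share 1100 codons and differ in their last exons. NM_010589 took 41.9%, 37.4%, 36.2% and 32.6% in D and 18.1%, 29.9%, 14.7% and 32.9% in M libraries, where M replicate 4 reached into the D range (exact permutation p = 0.0571; 0.180 adjusted). The last exon of NM_010589, of 404 bases at chr8:71690172-71690575, lies within the span of Insl3 on the same strand, so a read from it could be assigned to either gene. Insl3, which encodes an insulin-like peptide hormone of the testis, was counted at 1.31, 0.868, 0.938 and 1.25 CPM in D and 0.342, 0.200, 0.150 and 0 CPM in M libraries (log2 fold change 2.61; adjusted p = 0.00284).

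**Figure D4:**
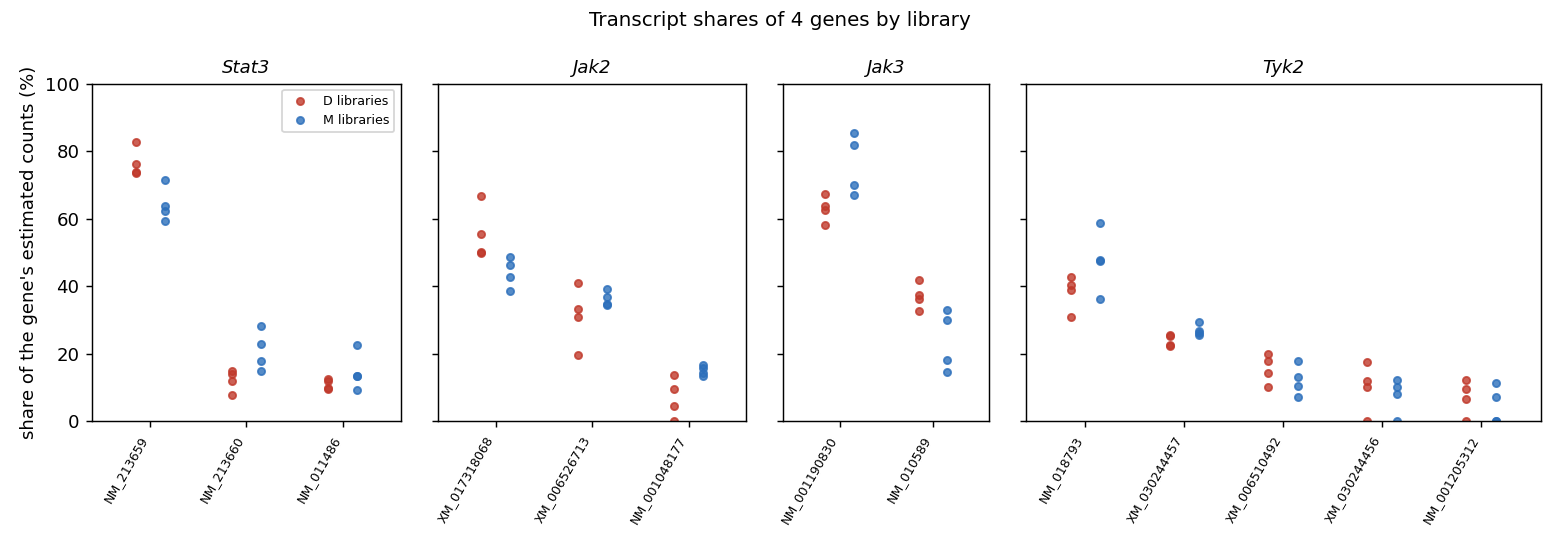
Share of each gene's estimated counts, in percent, taken by transcripts with a mean share of at least 5% in Stat3, Jak2, Jak3 and Tyk2; red, D libraries (left), and blue, M libraries (right). NM_213659, one of 2 alpha transcripts of Stat3, lies at 73.5% to 82.7% in D and 59.3% to 71.5% in M libraries.

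The promoters were searched on both strands for the core of the element bound by ISGF3 (ISRE, GAAA repeated after 2 bases of any kind), and for a palindrome bound by STAT dimers, TTCNNNGAA. The search ran from 250 bases before to 50 after each start in RefSeq (GRCm38.p6). Palindromes with another spacing were not searched. The 9 genes have 11 promoters in that set. The ISRE core was in 1 of the 11, that of Stat2, and in 3.44% of 32851 promoters. The STAT dimer core was in 0 of the 11 and in 8.30% of all promoters. The match in Stat2, shown because this gene is itself a part of ISGF3, begins 222 bases before the start at chr10:128270266-128270295 on the plus strand, where the capitals read GAAACTGAAA on the other strand.
Stat2 promoter site: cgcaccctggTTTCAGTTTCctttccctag

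The rest of the pathway was described with 12 lists of ligands, receptors, regulators, partners and target genes. Of 152 listed genes 123 were tested, 52 were higher (42.3%) and 17 lower (13.8%), with a median log2 fold change of 0.20. All genes tested were called higher in 17.4% and lower in 17.3% of cases, the background for each list that follows. The lists were chosen with earlier results of these data known, so the comparison with this background is a description and not a test. Some genes, such as Il4ra and Osm, stand in several lists. Of the 47 genes named below, 17 kept their call under all 24 alternatives, and 13 lost it only where the counts came from the most abundant or from the curated transcripts of each gene (Bcl2l1, Bcl6, Cd209a, Clcf1, Csf3r, Il15, Il27, Irf4, Oas1a, Ptprc, Sh2b2, Smarca4 and Stat4). All 47 kept their direction.

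Among the cytokines, 11 of 30 were tested, 3 rose and 2 fell (median 0.10), and most of the rest were barely counted. Il15, a growth factor of natural killer cells, was at 38.5 ± 7.69 CPM in D and 22.5 ± 4.32 CPM in M libraries (log2 fold change 0.77; adjusted p = 0.00509; SD, n = 4 here and below). Oncostatin M (Osm), a member of the interleukin 6 family, was at 41.4 ± 4.22 and 26.6 ± 3.82 CPM (0.64; adjusted p = 0.00207) and Il27 at 3.02 ± 0.356 and 1.55 ± 0.0867 CPM (0.95; adjusted p = 0.00198). Il12a, a chain of interleukin 12, fell to 8.33 ± 2.38 CPM in D against 19.5 ± 2.14 CPM in M libraries (-1.22; adjusted p = 0.000852), and Clcf1, another interleukin 6 family cytokine, was at 6.44 ± 1.37 and 11.4 ± 0.791 CPM (-0.83; adjusted p = 0.00247).

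Of the 5 interferon receptor chains 2 rose and none fell (median 0.13). Ifngr2, the interferon gamma receptor chain to which Jak2 binds, was at 172 ± 12.8 CPM in D and 115 ± 5.75 CPM in M libraries (log2 fold change 0.58; adjusted p = 0.000302). Ifnlr1, the interferon lambda receptor, was at 92.2 ± 14.6 and 58.7 ± 8.83 CPM (0.65; adjusted p = 0.00394). Among 10 common gamma chain and interleukin 4 family receptors 4 rose and 3 fell (median 0.18). Il4ra, the interleukin 4 receptor through which Stat6 is activated, was at 112 ± 19.5 and 80.2 ± 6.08 CPM (0.49; adjusted p = 0.0108), a call lost on log2(TPM + 1) with no filter (adjusted p = 0.0611) and where only the most abundant transcript was counted (adjusted p = 0.0803). Il13ra1 was at 35.4 ± 22.8 and 9.19 ± 3.25 CPM (1.94; adjusted p = 0.0305), a call lost on removing D replicate 2 or 3 or any M replicate (adjusted p 0.0504 to 0.0879). Il7r, the interleukin 7 receptor needed by B and T cell precursors, fell to 50.2 ± 9.14 CPM in D against 97.3 ± 19.02 CPM in M libraries (-0.95; adjusted p = 0.00195) and Il21r to 14.9 ± 3.06 against 28.9 ± 1.50 CPM (-0.95; adjusted p = 0.000637). B-lineage markers moved the same way as Il7r, with a median of -2.87 over 11.

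Of 8 common beta chain and homodimeric receptors 3 rose and none fell (median 0.09). Csf3r, the G-CSF receptor of the granulocyte lineage, was at 3247 ± 761 CPM in D and 1722 ± 319 CPM in M libraries (log2 fold change 0.91; adjusted p = 0.00444), beside a median of 0.70 over 11 neutrophil markers. The common beta chain Csf2rb was at 439 ± 50.2 and 321 ± 22.7 CPM (0.45; adjusted p = 0.00463). Its near-identical neighbour Csf2rb2, with which reads may be exchanged, was at 127 ± 8.33 and 106 ± 9.58 CPM (0.26; adjusted p = 0.0273), and its call ended on leaving out D replicate 2 or M replicate 1, 3 or 4 (adjusted p 0.0563 to 0.0844). Of 10 receptors of the gp130, interleukin 10 and interleukin 12 families 3 rose and 1 fell (median -0.09), each with a call that was lost without single libraries. Il6ra was at 111 ± 12.5 and 90.1 ± 6.62 CPM (0.30; adjusted p = 0.0259, and 0.0546 to 0.0718 on leaving out D replicate 4 or M replicate 1 or 3). Il11ra1 had a log2 fold change of 0.31 (adjusted p = 0.0258, and 0.0562 to 0.0789 on leaving out D replicate 2 or M replicate 2, 3 or 4, and 0.0516 with the replicate block) and Il12rb1 of 0.38 (adjusted p = 0.0325, and 0.0586 to 0.0831 on leaving out D replicate 2 or 4 or M replicate 2, 3 or 4). Lifr stood at -0.76 (adjusted p = 0.0284, and 0.0509 to 0.0850 on leaving out D replicate 2, 3 or 4 or M replicate 2 or 4).

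The 21 negative regulators went both ways, with 6 higher, 4 lower and a median of 0.00. The phosphatase Ptpn1, which acts on Jak2 and Tyk2, was at 189 ± 20.0 CPM in D and 150.4 ± 8.09 CPM in M libraries (log2 fold change 0.33; adjusted p = 0.0126). The leukocyte phosphatase Ptprc (CD45) was at 1704 ± 349.8 and 1127 ± 106 CPM (0.60; adjusted p = 0.00910) and Pias1, an inhibitor of STAT binding to DNA, at 78.5 ± 5.49 and 64.0 ± 4.03 CPM (0.29; adjusted p = 0.0113; 0.0575 to 0.0835 in 6 alternatives, among them library totals and TPM). The ubiquitin ligase Cbl was at 439 ± 68.3 and 349 ± 30.8 CPM (0.33; adjusted p = 0.0438, and 0.0634 to 0.118 without any library but D replicate 1). Some well-known feedback inhibitors, named after their values were seen, were less abundant. Socs3 had 18.4, 46.3, 27.7 and 29.6 CPM in D and 10.4, 15.5, 19.9 and 11.2 CPM in M libraries, with overlap at D replicate 1 (1.10; adjusted p = 0.0232, and 0.0517 to 0.0626 on leaving out D replicate 3 or M replicate 1 or 4). Socs1 fell to 2.00 ± 0.355 CPM in D against 4.60 ± 0.737 CPM in M libraries (-1.20; adjusted p = 0.000955), and Usp18, an inhibitor at the type I interferon receptor, was at 16.9 ± 5.90 and 6.51 ± 1.88 CPM (1.37; adjusted p = 0.00465). All 6 higher negative regulators are thus named here, but of the 4 lower ones only Socs1 is. Of 10 adaptors and coactivators 4 rose and 2 fell (median 0.17). The Jak2-binding adaptor Sh2b2 was at 218 ± 15.1 and 161 ± 11.7 CPM (0.44; adjusted p = 0.00208), and its relative Sh2b1 fell to 90.4 ± 4.44 CPM in D against 109.7 ± 6.78 CPM in M libraries (-0.28; adjusted p = 0.0101, and 0.0530 without D replicate 4). Smarca4, the ATPase of a chromatin-remodelling complex, fell to 147 ± 16.4 against 269 ± 22.1 CPM (-0.87; adjusted p = 0.000129), and the acetyltransferase Ep300 stood at 0.30 (adjusted p = 0.0454, and 0.0657 to 0.119 on leaving out D replicate 2, 3 or 4 or M replicate 1, 2 or 4).

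A further STAT gene and a partner of Stat2 were tested and both rose, with a median of 0.75. Stat4, the factor of interleukin 12, was at 47.7 ± 9.25 CPM in D and 23.3 ± 2.38 CPM in M libraries (1.03 ± 0.14; adjusted p = 0.000442), and T and NK cell markers, the cells best known to use it, had a median of 1.10 over 8. Irf9, the DNA-binding part of ISGF3, was at 95.9 ± 10.9 and 69.3 ± 10.2 CPM (0.47 ± 0.11; adjusted p = 0.00942). Stat2, which belongs to the same complex, stood at 0.08 ± 0.11 in the same fit and did not pass.

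The target lists of the STATs were not alike. Of 14 tested ISGF3 targets 11 rose and none fell, with a median of 1.18, while Stat2 itself was not called. The 2'-5' oligoadenylate synthetase genes Oasl2 (180.4 ± 56.8 CPM in D, 43.6 ± 17.5 CPM in M; log2 fold change 2.05; adjusted p = 0.00253), Oas3 (160.4 ± 43.8 and 67.7 ± 23.6 CPM; 1.24; adjusted p = 0.00910) and Oas1a (51.4 ± 15.9 and 21.9 ± 6.59 CPM; 1.23; adjusted p = 0.00884), one of several near-identical copies, were among them. So was Rsad2, which encodes the antiviral enzyme viperin (143 ± 48.0 and 66.9 ± 16.0 CPM; 1.10; adjusted p = 0.0163, and 0.0525 with the replicate block). Of 14 STAT3 targets 10 rose and none fell, with a median of 0.63. The decoy interleukin 1 receptor Il1r2 was at 87.4 ± 18.7 and 35.4 ± 7.73 CPM (1.30; adjusted p = 0.000926), the transcription factors Junb at 143 ± 30.6 and 82.5 ± 10.9 CPM (0.79; adjusted p = 0.00352), Cebpd at 128 ± 10.6 and 83.0 ± 5.59 CPM (0.62; adjusted p = 0.000297) and Fos at 109 ± 13.9 and 81.2 ± 9.50 CPM (0.43; adjusted p = 0.0121, and 0.0506 on log2(TPM + 1) with no filter). Neutrophil markers, with 8 of 11 higher, also rose in D over M, and their part in this list was not tested. Within D both sums were lowest in replicate 1. Within M, replicate 1 had the highest neutrophil marker sum (37169 CPM) and the lowest STAT3 target sum (880 CPM).

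Of 13 STAT5 targets 6 rose and 3 fell (median 0.14). The cyclin gene Ccnd3 was at 307 ± 5.22 CPM in D and 218 ± 17.4 CPM in M libraries (log2 fold change 0.50; adjusted p = 0.000698) and the repressor Bcl6 at 203 ± 40.3 and 118 ± 16.7 CPM (0.79; adjusted p = 0.00338). The survival gene Mcl1 was at 748 ± 129 and 582 ± 57.1 CPM (0.36; adjusted p = 0.0451, and 0.0738 to 0.117 on leaving out D replicate 2, 3 or 4 or M replicate 1, 2 or 4), while its relative Bcl2l1 fell to 59.3 ± 8.91 CPM in D against 77.0 ± 3.67 CPM in M libraries (-0.38; adjusted p = 0.0152). Of 11 tested STAT6 targets 1 rose and 3 fell, with a median of -0.29, where Stat6 and Il4ra were called higher. Irf4, also a factor of the B lineage, fell to 17.4 ± 5.37 against 118 ± 12.5 CPM (-2.75; adjusted p = 4.21e-05) and the lectin Cd209a to 2.16 ± 1.55 against 6.95 ± 1.40 CPM (-1.67; adjusted p = 0.0131). The lectin Mgl2, which has a close copy, stood at -0.40 (adjusted p = 0.0415, and 0.0602 to 0.103 without any library but D replicate 1). The transglutaminase Tgm2 stood at 0.40 (adjusted p = 0.0414, and 0.0657 to 0.113 without D replicate 2 or 3 or any M replicate). Arg1 and Retnla, 2 of the best known STAT6 targets of mouse macrophages, were under the filter in both groups.

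**Figure D5:**
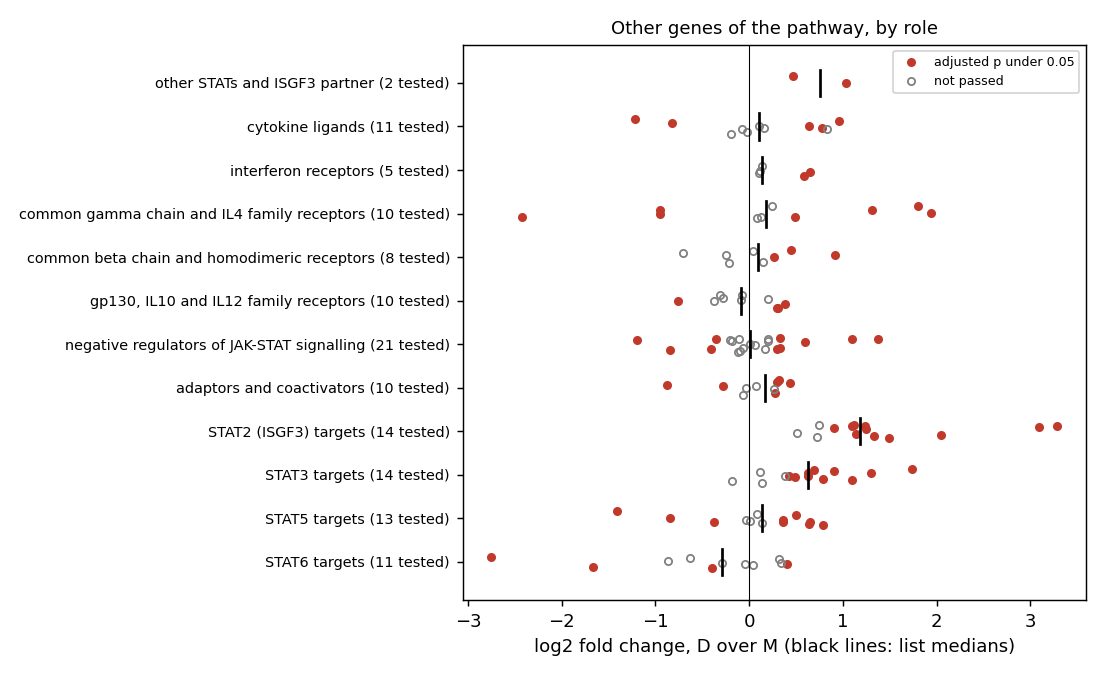
Log2 fold changes, D over M, of the tested genes in 12 lists of pathway genes; red points passed at an adjusted p under 0.05, open grey points did not, and black lines are list medians. The ISGF3 targets centre on 1.18 and the STAT3 targets on 0.63, and the STAT6 targets on -0.29.

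The genes whose log2 CPM followed each member most closely over the 8 libraries were looked up among 9486 genes, as a description without a test, since all values share the 2 groups and the same libraries. Jak1 was followed by Notch2 (Pearson r = 0.998), Herc4 and Ggt5, Stat3 by Mxd1 (0.995), Fpr2 and Tpd52, Stat5b by Hbp1 (0.997), Pld1 and Grina, and Stat6 by Lins1 (0.995), Myo9b and Sipa1l2. Jak2 was followed by Ddx3x (0.982), B230219D22Rik and Fmr1, Jak3 by Elk3 (0.953), Pcdh7 and Mdm2, and Tyk2 by Cd37 (0.977), Ppp1ccb and Sash3. Stat5a was followed by Tnpo3 (0.987), Tfpi and Bysl, and Stat2 by Chchd3 (0.945), Heatr6 and Mark3.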

How the data were processed

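Poly(A) RNA of 8 first-phase libraries was analysed. Per the labels' protocols, RNA was enriched with oligo(dT) beads, and per the submitters' processing notes the genome build was mm10 (GRCm38) and the tools included SOAPnuke 1.5.6 and a tool written as HISTA2 2.1.0; no source used here gives the tools' roles, the counting program or whether it used strand. Per the file headers, the deposited table gives each transcript's estimated counts, TPM, FPKM and a normalized read count, here treated as a signal, which equals the count divided by a factor per library (within a relative tolerance of 0.001) and was not used for tests. The 8 columns of group means were not used, and 0 columns belonged to no sample here.

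Estimated counts were summed per gene (1575 second entries of a transcript merged), rounded and tested in edgeR 4.0.16 (R 4.3.3; TMM, filterByExpr with its minimum count of 10, robust quasi-likelihood fit with the group alone), with Benjamini-Hochberg adjustment over all 12839 genes or 32312 transcripts and a threshold of 0.05. TMM factors were 0.913 to 1.01 in D and 1.03 to 1.05 in M libraries. Transcript shares were compared by exact permutation. Intervals and SEs cover the spread between libraries; no library was a copy of another (chi-square per gene 6.49 to 66.3 between replicates). Same-numbered D and M libraries deviated together from their group means (r = 0.115, 0.131, 0.118 and 0.182, against -0.178 to 0.0735 for other pairs). Each same-numbered r was above 0.1, so the numbers may pair the samples, though the labels do not explain the numbers. The main fits and the share permutations left this possible pairing out, and only the replicate block took it in. Alternatives used DESeq2 1.42.0, limma 3.58.1, other scalings, filters, units and transcript sets, a replicate block and each library left out. Sequences are from RefSeq promoters and GENCODE M21. The members and lists were chosen with earlier results of these data known. Of each pathway list all called genes were named, or the 4 with the highest TPM where more than 5 were called; Socs1, Socs3 and Usp18 were added after their values were seen, and 2 genes of the pathway lists are not reported here and were left out of the list counts.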

Additional observations from a re-analysis of the deposited data

Results flagged for a closer look

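Of 156 groups of 4 libraries examined among the named genes and transcript shares, 7 had a library far from the other 3, about as many as the 1 in 20 that chance alone flags. Stat3 in D replicate 1 was at 237 CPM, against 286 to 294 CPM in the other D libraries. Csf2rb2 in D replicate 2 was at 139.6 CPM (others 122 to 125 CPM) and Cebpd in D replicate 3 at 144 CPM (others 121 to 124 CPM). In the M libraries, Rsad2 was at 43.0 CPM in replicate 1 (others 72.7 to 76.9 CPM), and in replicate 4 Tgm2 was at 45.6 CPM (others 56.6 to 57.7 CPM) and Cd209a at 9.03 CPM (others 6.11 to 6.50 CPM). The Stat5a transcript NM_001164062 took 0% of that gene's counts in D replicate 4, against 25.5% to 28.9% in the other D libraries.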

How the results depend on the processing

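The 4 higher genes among the 9 became 2 on log2(TPM + 1) with no filter, 1 with curated transcripts and 1 at an adjusted p under 0.01, and 3 to 6 when each library was left out. The 2 higher transcripts became 1 with library totals, 5 with DESeq2's test, 1 on log2(TPM + 1) with no filter, 0 with the replicate block, 0 without D replicates 1 and 3 together, 0 at 0.01, and 1 to 3 when each library was left out; over all transcripts the block gave 235 higher and 129 lower, against 736 and 581, and each left-out library but D replicate 1 gave fewer too (105 to 371 higher). The block also passed Jak2 and ended Il11ra1 (adjusted p = 0.0516) and Rsad2, and changed no other call among the 9 genes and the 47 named pathway genes. Pathway genes, 52 higher and 17 lower, became 30 and 8 with the most abundant transcript, 34 and 10 with curated transcripts, 33 and 10 at 0.01, and 41 to 56 and 14 to 21 when each library was left out. Shares without overlap, 4, became 7 at most (without D replicate 4 or M replicate 3) and were 4 to 7 when each library was left out. Genes that changed sign were Jak2 with curated transcripts (-0.59), Stat2 with library totals (-0.031), log2(TPM + 1) with or without a filter (-0.010), log2(TPM + 0.1) (-0.010) and FPKM (-0.024), and Stat5a with DESeq2's size factors (0.0019), its test (0.0022), quality weights (0.0052), without D replicate 3 (0.039; -0.029 to 0.039 when each library was left out) and without D replicates 1 and 3 (0.045). Their adjusted p values under these settings were 0.202 to 0.986, and the causes were not tested. Library totals alone shifted the median of all genes by -0.10 and split the calls into 1524 higher and 3346 lower, TPM into 1459 and 2941 and FPKM into 1356 and 3022, against 2233 and 2223. Estimated counts carry no interval for reads shared by transcripts or copies.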
